A study of Mus musculus with 14 samples.

Results

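The lysosomal genes described here are 34 of the 36406 gene names on the array, for the lysosome's soluble enzymes and membrane proteins, read on arrays of satellite cells, the stem cells that lie along mouse muscle fibres. Every probe that the array design names after one of them was taken, which gave 44 probes among the 55681 probes of the array. By role they are 10 proteases, 8 glycan-degrading enzymes, 7 lipid-handling proteins, 4 membrane proteins and 5 parts of the proton pump. Of the 34 genes, 33 were bright enough to be tested. Ctss, the cathepsin S protease of antigen-presenting cells, was the exception, with a signal well above background on only 1 of 14 arrays (Old 3).

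The satellite cells came from dissociated muscle by flow cytometry, in a gate that took cells with integrin alpha 7 and CD34 and left out those with CD31, CD45, CD11b or Sca1. Each array carried 1 biological replicate, whose RNA was amplified as cDNA and labelled with Cy3. The C57BL/6 groups were Young mice (3 arrays, aged 2, 2 and 3 months), Old mice (3 arrays, aged 22, 23 and 24 months) and Geriatric mice (2 arrays, numbered 1 and 3, aged 30 and 29 months). The other strains, all 12 months old, were SAMP8 (3 arrays), which is prone to accelerated senescence, and SAMR1 (3 arrays), its senescence-resistant relative. All mice were labelled male and none was said to be treated. The series asks how quiescent satellite cells differ with physiological age and in a progeroid strain.

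Lysosomes are acidic compartments in which hydrolases break down proteins, glycans and lipids that arrive by endocytosis and autophagy. A proton pump, the V-ATPase, keeps them acidic, and transporters and channels in the membrane let the breakdown products and ions out. In quiescent satellite cells autophagy, which ends in the lysosome, is known to help preserve the resting state. Many lysosomal genes share a promoter element, called CLEAR, that the transcription factor TFEB binds.

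Levels below are log2 values of the background-subtracted signal relative to the 75th percentile of each array, so a level compares arrays for 1 probe and never 1 gene with another. Between 77.1% and 88.8% of probes were well above background on an array, and no spot was saturated. The 10 satellite cell markers were well above background on all 14 arrays. Their mean level was 2.14 to 2.65 on Young, 1.84 to 2.37 on Old and 2.44 to 2.47 on Geriatric arrays. On SAMP8 arrays it was 2.10 to 2.46 and on SAMR1 arrays 2.22 to 2.28. The part of these marker levels in the results was not tested. Xist, expressed from the inactive X chromosome of females, averaged −7.23 on the Geriatric arrays, against 5.26 on the Old and 5.69 on the Young arrays, and the Y-linked gene Ddx3y averaged 0.18 on the Geriatric, −7.54 on the Old and −7.61 on the Young arrays. The SAMP8 and SAMR1 arrays resembled the Geriatric ones in Ddx3y, at −0.05 and −0.07. Their Xist, at −4.14 and −6.76, lay above the Geriatric level and far below the Old and Young ones. Of 4 sex-linked genes checked, all 4 were well above background on the 3 SAMP8 arrays and SAMR1 1, against 3 on each Geriatric array. The Young and Old arrays therefore go against their male label, and in every comparison of Geriatric with Old or Young cells age and sex-linked expression cannot be told apart. The mean level over 12 leukocyte markers also stood lower on the Geriatric arrays, at −2.02 to −1.57, against −1.28 to −0.42 on the Old and −1.22 to −0.63 on the Young arrays, with 11 or 12 of the 12 well above background on each of these arrays. The part of these cells in the results was not tested. The arrays lie on 2 slides, and both Geriatric arrays lie on slide 2 together with 1 Young, 2 Old, 2 SAMP8 and 1 SAMR1 array.

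The probes behind the main results are shown because several values below turn on a single 60-base probe. The probes for Atp6v0d1 and Ppt1, in the files' build mm9, lie at chr8:108048778-108048837 on the minus strand and chr4:122525717-122525776 on the plus strand, and each is the gene's only probe.
Atp6v0d1: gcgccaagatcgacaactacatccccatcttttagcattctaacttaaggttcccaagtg
Ppt1: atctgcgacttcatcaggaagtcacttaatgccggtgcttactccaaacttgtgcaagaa
Idua and Ctsa each have 2 probes that disagree below, and the first 30 bases of each are given. The upstream Idua probe starts at chr5:109112893-109112922 with a CA repeat, in capitals, of 20 bases, and the downstream one at chr5:109113517-109113546. The upstream Ctsa probe starts at chr2:164665023-164665052 and the downstream one at chr2:164666433-164666462, all on the plus strand of mm9.
Idua upstream probe: CACACACACACACACACACAgagtctaaat
Idua downstream probe: cccaaatgactctagcttgtaataaactga
Ctsa upstream probe: gggtggatggattctaattgatggttgact
Ctsa downstream probe: gcggctaggtaaataagtatggttttatct

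Promoters were searched because TFEB's CLEAR element contains the palindrome TCACGTGA. RefSeq promoters of build GRCm38.p6, covering 250 bases before to 50 after the gene start, were found for 29 of the 34 members. TCACGTGA, which reads the same on both strands, stood in 7 of these 29 promoters (24.1%), against 1.12% of 27025 genes with a promoter. The shorter core CACGTG, which lies within it, stood in 12 of the 29 (41.4%), against 8.09% of all genes. A match is a run of letters and not a measured binding site. One window per gene is shown, with TCACGTGA in capitals.
Ctsa, chr2:164833750-164833777, plus strand: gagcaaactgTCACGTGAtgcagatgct
Ctsd, chr7:142387909-142387936, minus strand: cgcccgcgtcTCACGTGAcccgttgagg
Gla, chrX:134601216-134601243, minus strand: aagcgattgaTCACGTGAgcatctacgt
Cln3, chr7:126583341-126583368, minus strand: acgggtactgTCACGTGAcccccaacct
Mcoln1, chr8:3500463-3500490, plus strand: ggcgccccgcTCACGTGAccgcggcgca
Atp6v0d1, chr8:105566051-105566078, minus strand: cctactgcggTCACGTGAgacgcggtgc
Atp6v1a, chr16:44139374-44139401, minus strand: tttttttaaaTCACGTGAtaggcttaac
The first capital lies 4 bases before the annotated start in Atp6v0d1, 13 in Ctsa, 46 in Mcoln1, 99 in Ctsd, 122 in Cln3, 132 in Atp6v1a and 228 in Gla.

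Taken as a group, the members were at their lowest on the Old arrays. Their mean level over the 33 genes ran from 1.30 to 1.43 on Young, 1.09 to 1.21 on Old, 1.34 to 1.56 on Geriatric, 1.31 to 1.45 on SAMP8 and 1.38 to 1.56 on SAMR1 arrays. On this scale the 3 Old arrays lay below the other 11 arrays. The proton pump showed the same pattern against the other C57BL/6 arrays, with means of 2.33 to 2.42 on Young, 1.78 to 1.99 on Old and 2.18 to 2.52 on Geriatric arrays. Muscle fibre markers went the opposite way, and their mean level over 7 genes was highest on the 3 Old arrays, at −2.22 to −1.85. It was −2.75 to −2.33 on Young, −3.27 to −2.99 on Geriatric, −3.86 to −3.15 on SAMP8 and −2.99 to −2.47 on SAMR1 arrays. Of the 7 markers, 4 to 7 were well above background on an array. The part of the fibre markers in the Old levels was not tested. In these bulk samples, less RNA per cell and fewer expressing cells cannot be told apart.

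**Figure D1:**
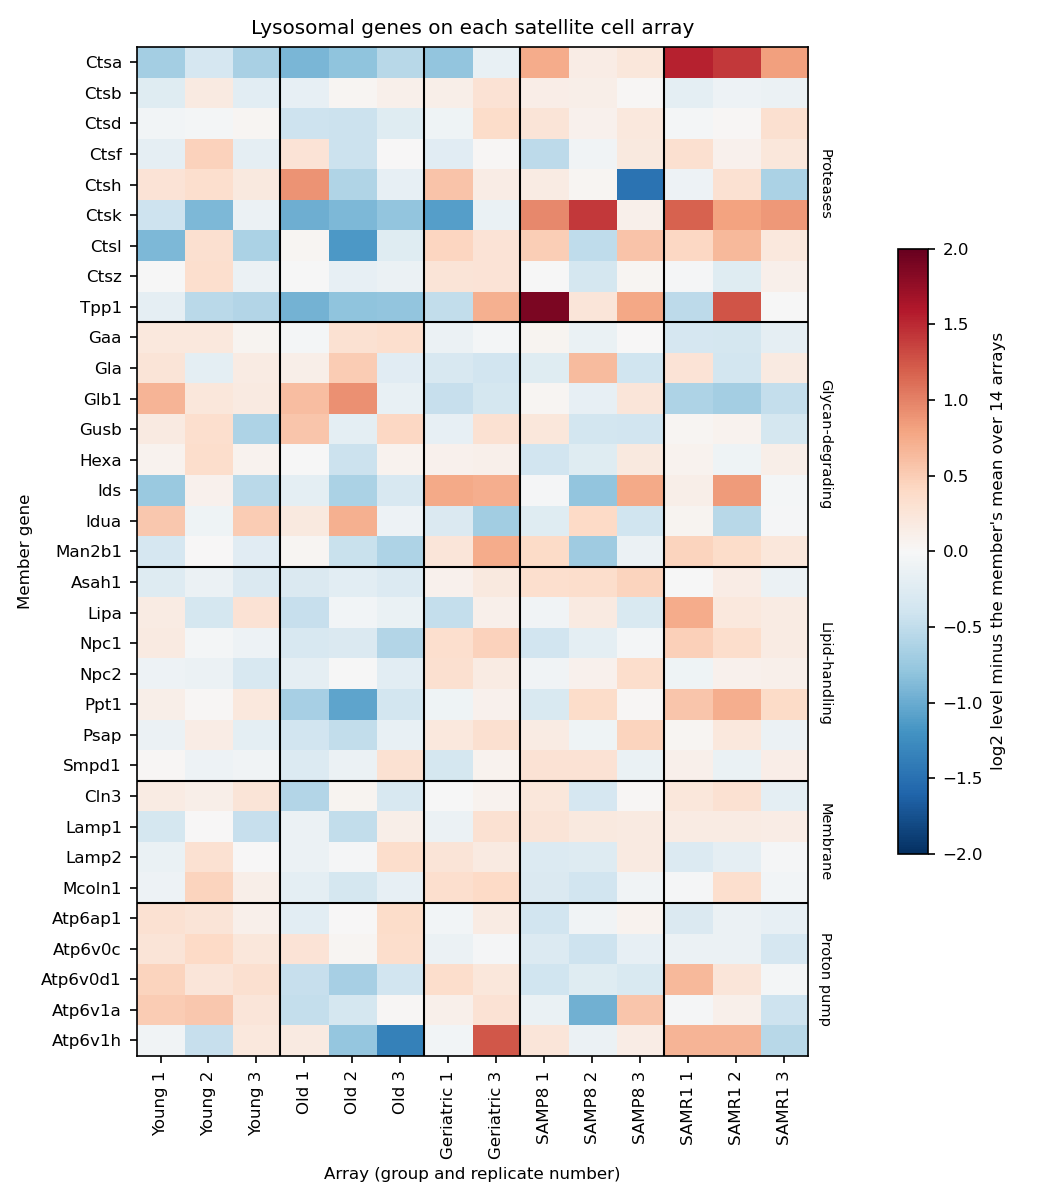
The log2 level of each of the 33 tested members (rows, by role) on each of the 14 arrays (columns, by group), minus that member's mean over all arrays. Red is above and blue below the member's mean, and colours end at 2 in either direction. Atp6v0d1 and Ppt1 are blue on all 3 Old arrays, and Ctsa and Ctsk are red on all 6 SAMP8 and SAMR1 arrays and blue on the C57BL/6 arrays.

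The Old versus Young comparison asks what happens to these genes between young adulthood and old age. Most members had lower mean levels in Old cells, led by pump subunits and by Ppt1, but no member passed the test. Of the 33 members, 0 were called in limma at a Benjamini-Hochberg adjusted p under 0.05, where 1.44% of all 32873 genes tested were called. At an unadjusted p under 0.05, 3 members were lower (9.09%) and 0 higher, against 5.98% of all genes lower, 10.9% higher and 16.9% in either direction. Counting genes whose arrays did not overlap, 8 members were lower in Old (24.2%), against 8.56% of all genes, and 0 were higher, against 12.9%. Of these 8, Ctsd, Cln3 and Atp6v1a overlapped by another probe seen above background in every group, though its mean was also lower in Old. The members' median log2 change was −0.16, with 23 of 33 below 0, and that of all genes was 0.06.

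Atp6v0d1, the d subunit that couples the V-ATPase's membrane sector to its cytosolic sector, had levels of 2.41, 2.20 and 2.48 on Old arrays, against 3.31, 3.11 and 3.19 on Young arrays. The groups lay far apart, with a log2 change of −0.84 ± 0.19 (SE from limma, n = 3 each) and an adjusted p of 0.0602. Atp6v1a, the catalytic subunit of the pump, had levels of 1.93, 2.05 and 2.42 on Old arrays, against 2.91, 2.95 and 2.65 on Young arrays. These groups did not overlap either, and the log2 change was −0.70 ± 0.32, adjusted p 0.300. The second Atp6v1a probe read −0.30, −0.76 and 0.27 on Old arrays, against 0.33, 0.63 and 0.14 on Young arrays, which overlapped. The other 3 pump genes were also below 0: Atp6v1h, a regulatory subunit, by −0.54 ± 0.46, Atp6ap1, an accessory protein, by −0.17, and Atp6v0c, the proton-carrying ring protein, by −0.08. The median over the 5 pump genes was −0.54, and none passed the test.

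Among the lipid-handling genes, Ppt1, the thioesterase that strips fatty acids from proteins, had levels of 1.27, 0.87 and 1.56 on Old arrays, against 2.06, 1.95 and 2.15 on Young arrays. Every Old array lay below every Young array, with a log2 change of −0.82 ± 0.23 and an adjusted p of 0.103. Npc1, the membrane protein that exports cholesterol from lysosomes, had levels of −0.45, −0.41 and −0.71 on Old arrays, against 0.06, −0.16 and −0.22 on Young arrays. Its arrays did not overlap, with a log2 change of −0.42 ± 0.18 and an adjusted p of 0.257. Psap, the precursor of the saposins that help degrade sphingolipids, changed by −0.28, while Smpd1 (acid sphingomyelinase), Npc2 (the soluble partner of Npc1) and Asah1 (acid ceramidase) lay between −0.03 and 0.05. Lipa, the acid lipase of cholesteryl esters, changed by −0.25.

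The proteases were mixed in size and mostly below 0, in 8 of 9 cases with a median of −0.20. Ctsd, the main aspartic protease, had levels of 2.47, 2.46 and 2.64 on Old arrays, against 2.83, 2.85 and 2.93 on Young arrays. By this brighter probe no Old array reached a Young array, and the log2 change was −0.35 ± 0.18, adjusted p 0.346. The second Ctsd probe read 1.28, 1.44 and 1.91 on Old arrays, against 1.78, 1.89 and 1.49 on Young arrays, which overlapped. Ctsb, a cysteine protease, was the 1 protease above 0, with 3.89, 4.10 and 4.16 on Old arrays, against 3.82, 4.23 and 3.85 on Young arrays. Its groups overlapped, with a log2 change of 0.08 ± 0.17. Tpp1, a peptidase that removes tripeptides, was dim, with −4.41, −4.27 and −4.25 on Old arrays, against −3.65, −4.01 and −4.05 on Young arrays, and its change of −0.41 had an SE of 0.50.

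The membrane proteins differed among themselves. Lamp1, a major glycoprotein of the lysosomal membrane, had levels of 2.72, 2.36 and 2.96 on Old arrays, against 2.49, 2.86 and 2.38 on Young arrays. Lamp2, its relative that also serves chaperone-mediated autophagy, had 2.56, 2.66 and 3.04 on Old arrays, against 2.56, 2.98 and 2.70 on Young arrays. Both overlapped, with log2 changes of 0.10 ± 0.20 and 0.01 ± 0.20. Cln3, mutated in human juvenile Batten disease, and Mcoln1, a calcium channel of the lysosome, had no overlap, with changes of −0.46 ± 0.22 and −0.39 ± 0.19 and adjusted p-values of 0.321 and 0.338. Another Cln3 probe read 0.19, 0.64 and 0.19 on Old arrays, against 0.77, −0.09 and 0.89 on Young arrays, which overlapped. The 8 glycan-degrading enzymes had a median of 0.03, from −0.29 for Hexa, the alpha subunit of beta-hexosaminidase, to 0.29 for Gusb, the beta-glucuronidase.

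The SE of a member's change was 0.22 in the median, so an unadjusted 95% interval spanned about 0.49 log2 units to either side. With 3 arrays against 3, even the change of −0.84 for Atp6v0d1 missed the adjusted threshold. With each array centred on its median in place of the 75th percentile, Atp6v0d1 passed the test (−1.05 ± 0.21, adjusted p 0.0368).

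**Figure D2:**
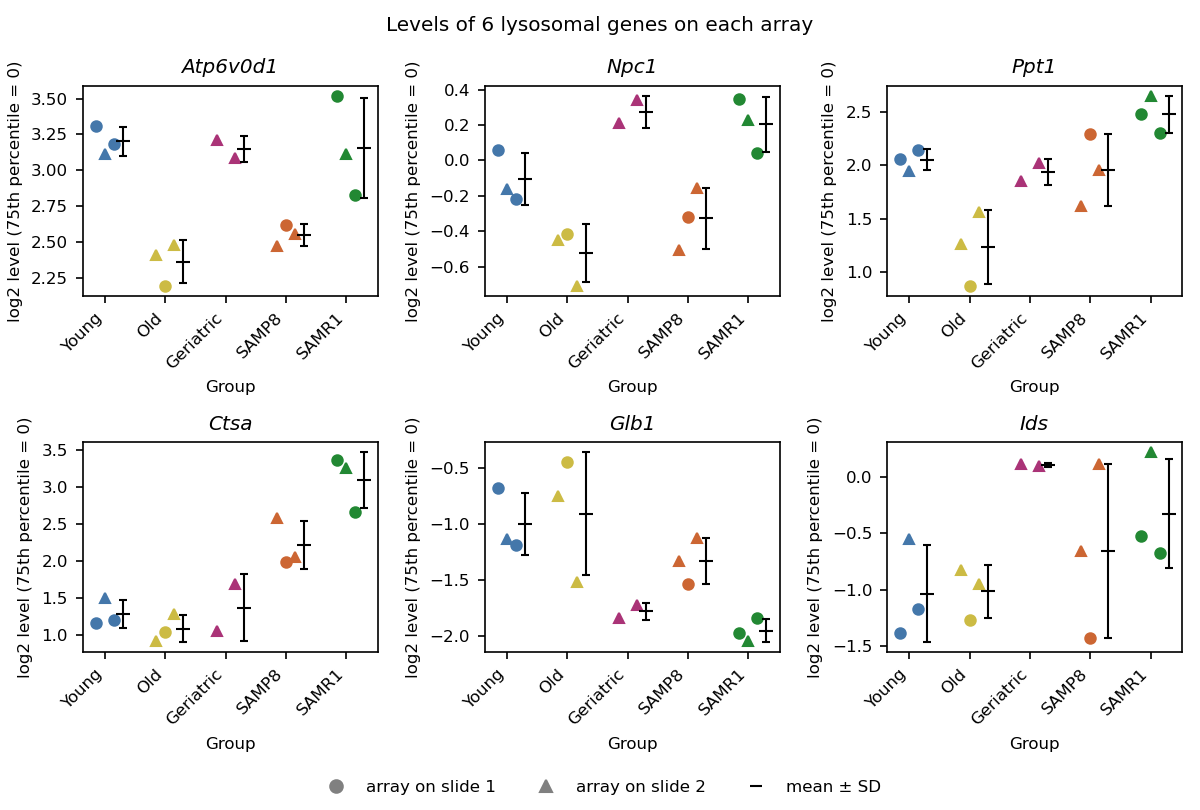
Levels of 6 members (log2, 75th percentile of the array = 0) on each array by group, with circles for slide 1, triangles for slide 2, and the mean ± SD beside each group. Atp6v0d1, Npc1 and Ppt1 are lowest on the Old arrays among the C57BL/6 groups and lower in SAMP8 than in SAMR1, and Glb1 is low on both Geriatric and all 3 SAMR1 arrays.

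The Geriatric versus Old comparison asks what changes between old and very old age. Here 2 members rose and none fell. Npc1 and Atp6v0d1 were higher in Geriatric than in Old cells by 1.74-fold and 1.73-fold. The 2 of 33 calls (6.06%) stand against 19.9% of all genes called in either direction and 5.52% called higher, so the share of rising members was near that of all genes. At an unadjusted p under 0.05, 10 members were higher (30.3%) and 2 lower (6.06%), together 36.4%, against 11.6% of all genes higher, 24.2% lower and 35.8% in either direction. Counting arrays that did not overlap, 16 members were higher (48.5%), against 19.5% of all genes, and 4 were lower (12.1%), against 35.4%. The members' median change was 0.31, with 25 of 33 above 0, and that of all genes was −0.22.

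Npc1 had levels of 0.21 and 0.34 on Geriatric arrays, against −0.45, −0.41 and −0.71 on Old arrays. Its log2 change was 0.80 ± 0.20 (SE, n = 2 against 3), with an adjusted p of 0.0170 in limma. Atp6v0d1 had levels of 3.21 and 3.09 on Geriatric arrays, against 2.41, 2.20 and 2.48 on Old arrays, and rose by 0.79 ± 0.22 with an adjusted p of 0.0275. Both genes were separated cleanly, and the Geriatric levels of Atp6v0d1 lay close to the Young ones (3.11 to 3.31).

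Both calls rested on the small Geriatric group. Its array Geriatric 1 had 969 outlier spots, which were left out, against 94 to 255 on each of the other arrays. Without Geriatric 1 the adjusted p was 0.0595 for Npc1 and 0.128 for Atp6v0d1, and without Geriatric 3 it was 0.123 and 0.108, with log2 changes of 0.72 to 0.86. Atp6v0d1 also missed the threshold without Old 1 (0.0588) or Old 2 (0.0834), which left 1 member called. Without Old 3 or SAMP8 2 the count was 4 (12.1%), against 22.2% and 22.0% of all genes called. SAMP8 arrays enter this comparison only through the spread estimated over all arrays. Within slide 2 alone the changes were 0.85 for Npc1 and 0.70 for Atp6v0d1, with adjusted p-values of 0.142 and 0.154. With slide as a block they were 0.82 and 0.79, with adjusted p-values of 0.0144 and 0.0276.

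The largest changes belonged to genes with wide errors. Atp6v1h had levels of −3.55 and −2.24 on Geriatric arrays, against −3.32, −4.27 and −4.84 on Old arrays, which overlapped, and a log2 change of 1.25 ± 0.52 (adjusted p 0.110). Ids, the iduronate sulfatase of heparan and dermatan sulfate breakdown, had 0.12 and 0.09 on Geriatric arrays, against −0.82, −1.27 and −0.95 on Old arrays. This separation gave a change of 1.12 ± 0.42 (adjusted p 0.0830). Tpp1 had −3.96 and −2.76 on Geriatric arrays, against −4.41, −4.27 and −4.25 on Old arrays, with a change of 0.96 ± 0.56 (adjusted p 0.238).

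Ppt1 had 1.85 and 2.02 on Geriatric arrays, against 1.27, 0.87 and 1.56 on Old arrays, a change of 0.70 ± 0.25 with an adjusted p of 0.0708. Of the 7 lipid-handling genes 6 were above 0, with Smpd1 (−0.11) the exception, with a median of 0.39 and Psap at 0.60 (adjusted p 0.0721). Of the 5 pump genes 4 were above 0, with a median of 0.47, and Atp6v0c was lower without overlap (−0.29 ± 0.18). Among proteases 8 of 9 were above 0, with a median of 0.32. Ctsd had 2.80 and 3.25 on Geriatric arrays and changed by 0.50 ± 0.20 against Old (adjusted p 0.0916), and Ctsb had 4.18 and 4.35 on Geriatric arrays with a change of 0.21. All 4 membrane proteins were above 0, from 0.14 for Lamp2 by its brighter probe (2.93 and 2.86 on Geriatric arrays) and 0.26 for Lamp1 (2.72 and 3.14 on Geriatric arrays) to 0.61 ± 0.22 for Mcoln1 (adjusted p 0.0691). The other Lamp2 probe read 1.14 and 1.34 on Geriatric arrays, against 0.37, −0.07 and 0.92 on Old arrays, without overlap (0.83 ± 0.36, adjusted p 0.128 over all probes).

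The glycan-degrading enzymes went both ways. Glb1, the beta-galactosidase behind the stain used for senescent cells, had −1.84 and −1.73 on Geriatric arrays, against −0.75, −0.45 and −1.52 on Old arrays. All Geriatric values lay below all Old values, with a change of −0.87 ± 0.30 and an adjusted p of 0.0583. Man2b1, the lysosomal alpha-mannosidase, stood at 0.39 ± 0.35 (SD, n = 2) on Geriatric and −0.44 ± 0.33 (SD, n = 3) on Old arrays, a change of 0.84 ± 0.32 (adjusted p 0.0826). The median over the 8 enzymes was −0.23, with 5 below 0.

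**Figure D3:**
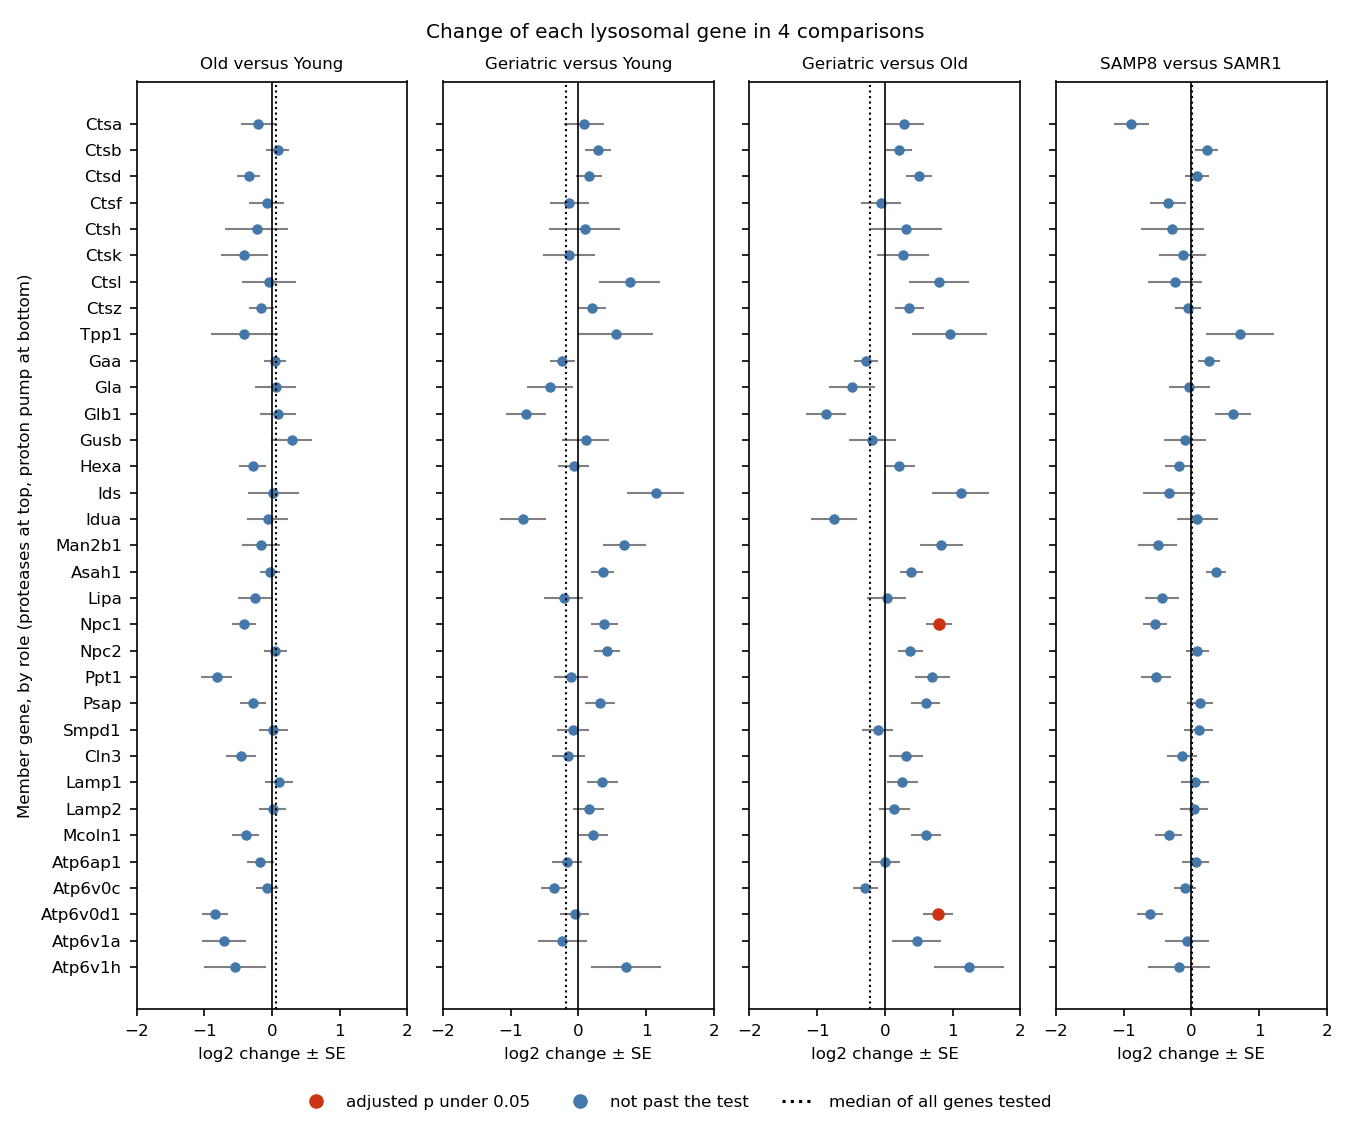
The log2 change ± SE of each of the 33 tested members in the 4 comparisons, by role from proteases at the top to the proton pump at the bottom. Red points passed the test, blue points did not, the solid line is 0 and the dotted line is the median of all genes tested. In Geriatric versus Old, Npc1 and Atp6v0d1 are the red points and 25 of the 33 members lie to the right of 0. In Old versus Young, 23 lie to its left.

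How arrays were scaled moved these counts. In Geriatric versus Old the median change of all genes was −0.22 with the 75th percentile, 0.06 with the array median, 0.03 with quantile normalization and −0.01 in the authors' deposited log2 values. The share of calls that were higher was 27.7%, 48.4%, 46.9% and 42.9% in the same order. The members' median was 0.31, 0.60, 0.41 and 0.38, and the number of members called was 2, 9, 4 and 6, all higher. These are 6.06%, 27.3%, 12.1% and 18.2% of the 33, against 5.52%, 9.79%, 8.99% and 8.27% of all genes called higher and 19.9%, 20.2%, 19.2% and 19.3% called in either direction. Npc1 and Atp6v0d1 were called in each of these scalings.

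The Geriatric versus Young comparison spans the whole age range. Members lay on both sides of 0, and 0 of 33 were called, where 4.19% of all genes were, and the limma test without adjustment gave 2 higher and 2 lower (6.06% each), against 7.12% of all genes higher, 14.8% lower and 21.9% in either direction. With arrays that did not overlap, 6 members were higher (18.2%), against 15.1% of all genes, and 6 were lower (18.2%), against 29.1%. The median change was 0.09, and −0.18 over all genes. Within slide 2 the members' median was −0.01 and without Geriatric 3 it was −0.07.

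Ids had the largest change, with 0.12 and 0.09 on Geriatric arrays, against −1.38, −0.55 and −1.17 on Young arrays (1.14 ± 0.42, adjusted p 0.152). Glb1 was lower, with −1.84 and −1.73 on Geriatric arrays, against −0.68, −1.14 and −1.18 on Young arrays (−0.78 ± 0.30, adjusted p 0.159). Idua, the iduronidase that acts beside Ids, had 7.47 and 7.07 on Geriatric arrays by its upstream probe, against 8.31, 7.67 and 8.27 on Young arrays (−0.81 ± 0.34, adjusted p 0.192). Its downstream probe went the other way, with 0.70 and 0.72 on Geriatric arrays, against 0.03, 0.19 and −0.09 on Young arrays (0.66 ± 0.21, adjusted p 0.108 over all probes), also without overlap. None of these separations passed the adjustment. Atp6v0d1 and Ppt1 were close to their Young levels, with changes of −0.05 ± 0.22 and −0.11 ± 0.25. The other pump genes went both ways, with Atp6v0c lower without overlap (−0.37 ± 0.18, adjusted p 0.265). Atp6v1a changed by −0.23, Atp6ap1 by −0.16 and Atp6v1h by 0.70 ± 0.52.

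Among the 4 X-linked members, where the sex-linked transcripts bear most directly, Ids was higher and Gla, the alpha-galactosidase, lower in Geriatric than in Young cells without overlap, and Lamp2 (0.15 by its brighter probe) and Atp6ap1 (−0.16) overlapped. The other Lamp2 probe was higher without overlap (0.82 ± 0.36, adjusted p 0.228 over all probes). Gla changed by −0.42 ± 0.34 (adjusted p 0.479). With slide as a block Ids changed by 0.63 and Gla by −0.0042 against Young, so slide moved with both. Against Old, Ids changed by 0.86 with slide as a block (adjusted p 0.0374).

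The SAMP8 versus SAMR1 comparison sets the senescence-prone strain against its resistant relative at 12 months. No member passed the test (0 of 33, where 0.450% of all genes did). In limma at an unadjusted p under 0.05, 2 members were higher (6.06%) and 4 lower (12.1%), against 4.30% of all genes higher, 4.03% lower and 8.33% in either direction. Arrays did not overlap for 5 members that were higher (15.2%), against 7.75% of all genes, and 5 that were lower (15.2%), against 5.36%. The members' median was −0.09 and that of all genes 0.01, and without SAMP8 2 the members' median was 0.01. Mean levels over 4 Schwann cell markers were −2.81 to −1.16 on SAMP8 and −0.78 to 0.16 on SAMR1 arrays. Those over 7 muscle fibre markers were −3.86 to −3.15 and −2.99 to −2.47. Leukocyte, endothelial, mesenchymal, pericyte and satellite cell marker means overlapped between the strains. The part of these cells in the strain comparison was not tested.

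Ctsa, the carboxypeptidase that also protects beta-galactosidase and neuraminidase, had levels of 2.58, 1.99 and 2.06 on SAMP8 arrays, against 3.38, 3.26 and 2.66 on SAMR1 arrays by its upstream probe. No arrays overlapped, and the change was −0.89 ± 0.26 with an adjusted p of 0.280. Its downstream probe gave −0.80, −1.24 and −1.37 on SAMP8 arrays, against −1.16, −0.61 and −1.50 on SAMR1 arrays, which overlapped, with a change of −0.05. Tpp1 had −1.59, −3.23 and −2.69 on SAMP8 arrays, against −4.00, −2.21 and −3.47 on SAMR1 arrays, and its change of 0.72 ± 0.50 did not separate the groups. Glb1 had −1.34, −1.54 and −1.12 on SAMP8 arrays, against −1.98, −2.04 and −1.84 on SAMR1 arrays, without overlap (0.62 ± 0.26, adjusted p 0.549).

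In 8 members every Old array lay below every Young array. Of these, Atp6v0d1, Npc1, Ppt1 and Mcoln1 (−0.34 ± 0.19) were also lower in SAMP8 than in SAMR1, without overlap. The others overlapped between the strains, with Cln3 (−0.14) and Atp6v1a (means of 2.23 and 2.30) lower and Ctsd (0.08) and Tpp1 (0.72) higher. The highest SAMP8 and lowest SAMR1 levels lay close together for Ppt1 (2.29 against 2.31) and also for Mcoln1. Of all genes, 8.56% were lower without overlap in Old versus Young and 5.36% in SAMP8 versus SAMR1. The share of all genes lower in both was not counted, so whether members are over-represented there was not tested. Atp6v0d1 had 2.47, 2.62 and 2.56 on SAMP8 arrays, against 3.52, 3.11 and 2.83 on SAMR1 arrays (−0.60 ± 0.19, adjusted p 0.338). Npc1 had −0.50, −0.32 and −0.16 on SAMP8 arrays, against 0.35, 0.23 and 0.04 on SAMR1 arrays (−0.53 ± 0.18, adjusted p 0.359). Ppt1 had 1.62, 2.29 and 1.96 on SAMP8 arrays, against 2.48, 2.65 and 2.31 on SAMR1 arrays (−0.52 ± 0.23, adjusted p 0.563). The SAMP8 and SAMR1 arrays are not those of the Old versus Young comparison, although a common fit estimated the spread. Of the membrane proteins, Lamp1 lay at 3.09, 3.04 and 3.02 on SAMP8 and 3.00, 3.00 and 2.99 on SAMR1 arrays, and Lamp2 at 2.42, 2.42 and 2.86 on SAMP8 and 2.41, 2.50 and 2.67 on SAMR1 arrays. Ctsb had 4.19, 4.17 and 4.08 on SAMP8 and 3.87, 3.96 and 3.94 on SAMR1 arrays, a change of 0.23 ± 0.17, and Ctsd 3.14, 2.98 and 3.09 on SAMP8 and 2.85, 2.92 and 3.20 on SAMR1 arrays.

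Whether age and strain act alike was tested as a difference of changes. The Young and Old arrays differ from the SAMP8 and SAMR1 arrays in sex-linked expression and in strain background. A difference between the changes therefore cannot be told apart from a part played by either. For Old versus Young minus SAMP8 versus SAMR1, 0 of 33 members passed, where 0.371% of all genes did, and 0 had an unadjusted p under 0.05 in limma, against 11.6% of all genes. For Atp6v0d1 this difference was −0.24, with a 95% interval of −0.84 to 0.37, for Ppt1 −0.30 (−0.997 to 0.40) and for Npc1 0.12 (−0.43 to 0.66), intervals too wide to call the changes alike. For Geriatric versus Young minus SAMP8 versus SAMR1, 0 of 33 passed, where 1.73% of all genes did, and 5 had an unadjusted p under 0.05, against 16.3% of all genes. The member with the smallest p was Glb1, lower in Geriatric cells and higher in SAMP8 cells, with a difference of −1.40 ± 0.40 and an adjusted p of 0.120. Without Old 3, whose Glb1 level of −1.52 lay below the other Old arrays, Glb1 was called and the count was 1 (3.03%), against 1.69% of all genes. Old arrays enter this difference only through the spread estimated over all arrays.

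Ctsf and Ctsh are cysteine proteases, Ctsz is a carboxypeptidase, and Gaa degrades glycogen. Ctsz averaged 4.86 ± 0.01 (SD, n = 2) on Geriatric and 4.49 ± 0.08 (SD, n = 3) on Old arrays, without overlap, a change of 0.36 ± 0.21 that did not pass the test. Gaa averaged 4.92 ± 0.10 on SAMP8 and 4.66 ± 0.09 on SAMR1 arrays (SD, n = 3 each), also without overlap. Ctsf had overlapping arrays in all 4 comparisons, with changes of −0.34 to −0.05. Ctsh was well above background on all 3 Young and both Geriatric arrays but on 2 of 3 Old, SAMP8 and SAMR1 arrays, and its SE was 0.47 to 0.52.

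Beyond the planned comparisons, Ctsa and Ctsk differed between the SAMP8 and SAMR1 arrays together and the C57BL/6 arrays, a grouping looked at after the values were seen and given without a test. Ctsa lay at 1.99 to 3.38 on the 6 SAMP8 and SAMR1 arrays and at 0.93 to 1.69 on the 8 C57BL/6 arrays. Ctsk, the collagen-degrading cathepsin of osteoclasts, lay at −3.89 to −2.58 on the SAMP8 and SAMR1 arrays and at −5.09 to −4.11 on the C57BL/6 arrays. The downstream Ctsa probe placed the 2 Geriatric arrays (−1.36 and −1.47) with SAMP8 and SAMR1 (−1.50 to −0.61) rather than with Old (−3.18 to −2.38) and Young (−3.16 to −2.27). The sex-linked transcripts divide the arrays in the same way, with mean levels over 4 genes of −2.79 to −2.33 on Geriatric, −2.36 to −1.30 on SAMP8 and −2.64 to −1.84 on SAMR1 arrays, against −4.55 to −4.23 on Old and −4.32 to −4.21 on Young arrays. Mesenchymal markers, counted over 7 of 8 listed genes, had mean levels of 1.91 to 2.35 on SAMP8 and 1.53 to 2.04 on SAMR1 arrays, against −0.03 to 1.25 on C57BL/6 arrays, and endothelial markers −0.50 to 2.03 on SAMP8 and 1.23 to 2.45 on SAMR1 arrays, against −2.36 to −0.41 on C57BL/6 arrays. Their part in these levels was not tested, and strain, age, marker levels and, beside the Young and Old arrays, sex-linked expression cannot be told apart.

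Probes of the same gene disagreed in places. Of 9 members with several probes seen above background in every group, 4 had probes of opposite sign in Geriatric versus Old (Cln3, Ctsd, Gaa and Idua), as did 4 in Old versus Young, 5 in Geriatric versus Young and 6 in SAMP8 versus SAMR1. When each probe was tested on its own in Geriatric versus Old, 4 of 43 were called (9.30%), all higher, against 5.32% of 49930 probes called higher and 18.0% in either direction. They were Npc1, Atp6v0d1, the downstream Idua probe and the downstream Ctsa probe.

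The downstream Idua probe read 0.70 and 0.72 on Geriatric arrays, against 0.04, −0.34 and −0.29 on Old arrays, a rise of 0.91 ± 0.21 (adjusted p 0.0132). The upstream Idua probe, with the CA repeat, read 7.47 and 7.07 on Geriatric arrays, against 7.95, 8.47 and 7.65 on Old arrays, a change of −0.75 ± 0.34 (adjusted p 0.145 over all probes). The 2 probes thus gave opposite directions for the same gene, and no direction is given for Idua. The downstream Ctsa probe rose by 1.31 ± 0.36 (adjusted p 0.0276), with −1.36 and −1.47 on Geriatric arrays, against −2.38, −3.18 and −2.63 on Old arrays, while the upstream Ctsa probe changed by 0.28. The second probe of Ctsd changed by −0.06 ± 0.29, against 0.50 by the probe used above, and that of Gaa by 0.54 ± 0.27, against −0.28. The dimmest Cln3 probe was well above background on 2 SAMP8 arrays and 1 Geriatric array only.

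**Figure D4:**
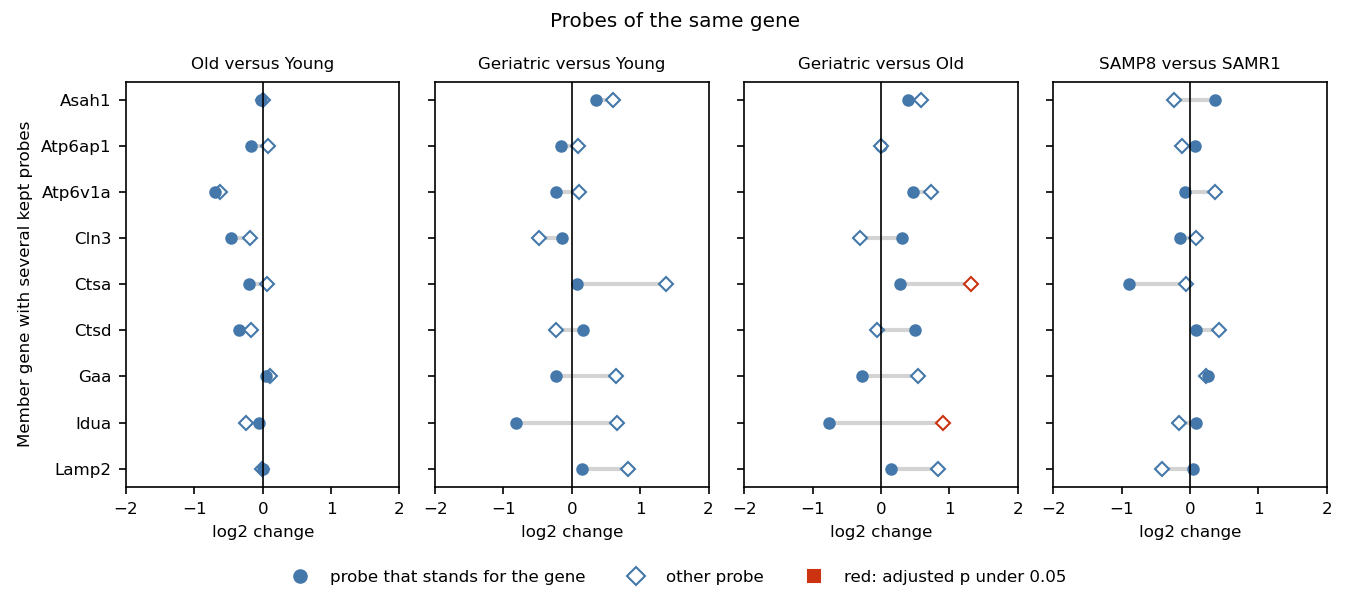
The log2 change of each probe of the 9 members with several probes above background in every group, in the 4 comparisons. Filled circles are the probe that stands for the gene, open diamonds the others, and red marks an adjusted p under 0.05 over all probes. In Geriatric versus Old the Idua probes lie on opposite sides of 0, at −0.75 and 0.91.

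Slide was fitted as a term beside group, a test added because arrays of 1 group lay on both slides. It passed for 4 of 33 members (12.1%), where 8.20% of all genes did. Ctsl, a cysteine protease, read 0.11 to 1.67 on slide 1 and 1.02 to 1.91 on slide 2, and its slide term was −0.88 ± 0.14 (slide 1 minus slide 2, adjusted p 0.00720). Ids differed by −0.77 ± 0.17 (adjusted p 0.0212), while Idua by its upstream probe and Gla differed the other way, by 0.64 ± 0.11 (adjusted p 0.00943) and 0.63 ± 0.12 (adjusted p 0.0126). The downstream Idua probe had a slide term of −0.16 ± 0.12 (adjusted p 0.484 over all probes). The 4 members whose slide term passed also had Geriatric values that stood apart from Old, and both Geriatric arrays lie on slide 2. With slide as a block, their Geriatric versus Old changes were 0.51 for Ctsl, 0.86 for Ids, −0.54 for Idua and −0.27 for Gla. Without it they were 0.80, 1.12, −0.75 and −0.48. Ids and Idua passed the test with slide as a block. Within slide 2 alone, with 2 arrays against 2, the changes were 0.46, 0.99, −0.53 and −0.29. The slide terms of Npc1 (0.06 ± 0.12) and Atp6v0d1 (0.01 ± 0.14) were small.

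**Figure D5:**
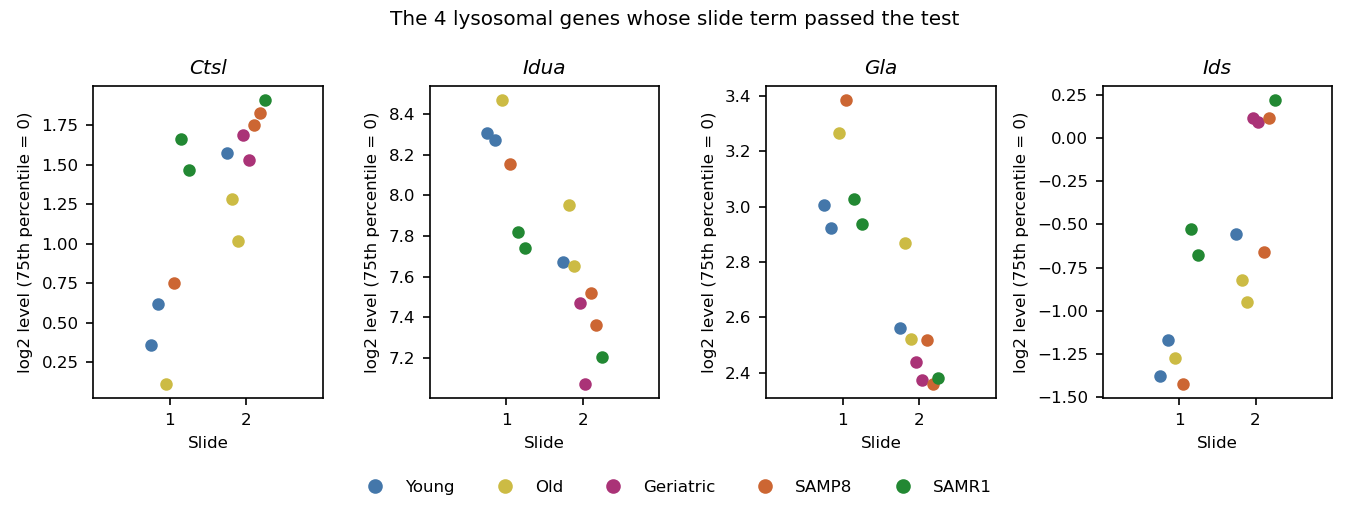
Levels (log2, 75th percentile of the array = 0) of the 4 members whose slide term passed the test, with arrays split by slide and coloured by group. Ctsl and Ids are higher and Idua, by its upstream probe, and Gla lower on slide 2, which holds both Geriatric arrays.

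Other lysosomal genes were read in the same way. Of 54 further genes of the lysosome, its sorting machinery and its regulators, 53 were tested. Between Geriatric and Old cells 5 rose and 0 fell (9.43%, against the 5.52% of all genes called higher), with a median change of 0.33. Those that rose included Acp2, the lysosomal acid phosphatase (0.69 ± 0.21, adjusted p 0.0424), Robld3, now named Lamtor2, part of the complex that anchors nutrient signalling to the lysosome (1.05 ± 0.32, adjusted p 0.0411), and the pump subunits Atp6v1g1 (0.76 ± 0.23, adjusted p 0.0400) and Atp6v1b2 (1.40 ± 0.44, adjusted p 0.0455), which was well above background on 1 of 3 Old arrays. In the other 3 comparisons 0 of 53 passed in limma, with 7 lower and 0 higher at an unadjusted p under 0.05 in Old versus Young, 5 higher and 3 lower in Geriatric versus Young, and 2 higher and 4 lower in SAMP8 versus SAMR1. In either direction these are 13.2%, 15.1% and 11.3% of the 53, against 16.9%, 21.9% and 8.33% of all genes, and the 7 lower in Old stand against 5.98% of all genes lower.

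Atp6v0b, another proton-ring protein of the pump, had the smallest p among them in Old versus Young, with 3.95, 3.80 and 3.73 on Old arrays, against 4.49, 4.52 and 4.61 on Young arrays. Its change of −0.71 ± 0.16 had an adjusted p of 0.0559, and the groups did not overlap. The transcription factors that bind CLEAR elements, Tfeb, Tfe3 and Mitf, were tested under their array names and none passed. Between Geriatric and Old cells Tfeb changed by 0.31 ± 0.44, Tfe3 by −0.23 ± 0.23 and Mitf by 0.12 ± 0.20.

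The 7 members with TCACGTGA in the promoter windows shown above were 6 below 0 and 1 above in Old versus Young, with a median of −0.39, and 13 of the 21 tested members whose promoter lacked it were below 0, with a median of −0.08. Of all 32873 genes 14667 were below 0 in Old versus Young. Between Geriatric and Old cells 6 of the 7 were above 0 with a median of 0.47, and 14 of the 21 with a median of 0.22. Here 13206 of all genes were above 0. The counts turn on probe choice, as Ctsd and Cln3 had another probe of opposite sign in Geriatric versus Old, and Ctsa in Old versus Young. In Geriatric versus Young the medians were −0.05 and −0.07, and in SAMP8 versus SAMR1 −0.14 and −0.05. These are counts without a test, and the age comparisons share their arrays.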

How the data were processed

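Spot signals were deposited as linear intensity, background-subtracted by Agilent Feature Extraction 10.7.3.1 with probe coordinates of mm9, per the file headers. The authors also deposited log2 values, and no source used here states their method. They equalled, to within 1.17e-04, normexp correction with offset 50 followed by quantile normalization, with a median of 7.80 in every column. Here control and outlier spots were left out, spots of a probe averaged as log2, and each array's 75th percentile over 55681 probes subtracted. A probe was kept if at least 2 arrays of any group read it well above background (49930 probes), and a gene took its kept probe with the highest mean (32873 genes).

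The test was limma 3.58.1 (R 4.3.3) with 1 coefficient per group over all 14 arrays, two-sided, and Benjamini-Hochberg adjustment over all genes. Prior degrees of freedom were 2.36, residual 9, and 524 missing values were left as missing. Precision is limited by the number of arrays. Slide was read from the array identifiers in the file headers, and no label gives it. The fit was tested on simulated data.

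Alternatives covered background correction, scaling, the authors' values, filters, probe choice, slide, the replicate block, fits to the 2 groups alone and leaving out each array. The members and the other gene lists were chosen with earlier results of these data known. Full values go to members past the test, the 3 largest changes of each comparison, and Lamp1, Lamp2, Ctsb and Ctsd, and of other lysosomal genes those past the test, the regulators and up to 2 with the smallest p; 1 that passed the test is counted but not reported here by name. Geriatric replicate 2 was not analysed here.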

Additional observations from a re-analysis of the deposited data

How the results depend on the processing

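In Geriatric versus Old, 2 members were called, and the count depended on the setting. It was 6 with normexp and quantile normalization and 6 with the authors' deposited log2 values (18.2% each, against 19.3% of all genes called), 4 with quantile normalization of the processed signal (12.1%, against 19.2%), 9 with the median of each array (27.3%, against 20.2%), 4 with every kept probe on its own (9.30%, against 18.0%), 6 with slide as a block (5 higher and 1 lower, Idua; 18.2%, against 21.6%), 0 within slide 2 (against 4.73%) and 0 in a fit of the 2 groups alone (against 9.12%). Leaving out 1 array gave 0 to 4. Npc1 kept its call in 21 of 25 alternatives and Atp6v0d1 in 18 of 25, with log2 changes of 0.71 to 1.08 and 0.70 to 1.07 and no change of direction. In Old versus Young 1 member (Atp6v0d1) was called with the median of each array (3.03%, against 1.28%). The difference between the Geriatric and SAMP8 changes had 0 to 1 members called when 1 array was left out, with Glb1 called without Old 3. An array of a group outside a comparison enters it only through the spread estimated over all arrays. Beyond this and the fewer arrays of the reduced fits, the cause of the shifts was not tested. All other counts stayed at 0 under every alternative run. Idua was called lower with slide as a block, where its upstream probe stood for it. Its downstream probe was called higher when every kept probe was tested on its own. Slide 1 holds no Geriatric array, so no Geriatric comparison could be fitted there, and the differences of changes were not run within slides or on 2 groups.

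The fit with a replicate block left 1 member called in Geriatric versus Old (Npc1, adjusted p 0.0421; 3.03%, against 14.5% of all genes). Replicate numbers did not pair the arrays: same-numbered arrays correlated in their deviations at −0.25 to 0.19, with 5 of 26 pairs over 0.1. The higher share of all calls in Old versus Young was 83.3% with the 75th percentile and 66.8% to 74.8% in the other scalings, and in Geriatric versus Young 37.7% and 38.2% to 49.6%. Geriatric values rest on 2 arrays, and amplified cDNA of few cells adds spread that cannot be separated from biological spread here.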
